A study of Sus scrofa domesticus with 11 samples.

Results

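Genes of glutathione metabolism and oxidative stress defence were followed in the livers of preterm Yorkshire piglets fed by vein. The 10 members are GCLC, GCLM, GSR, GPX1, TXNRD1, NQO1, HMOX1, SOD1, SOD2 and CAT, taken by gene name from the deposited table. All 10 were found, each under a single identifier, among 22029 genes in the table, and all 10 passed a filter on low counts that left 13671 genes for testing. The study compared 5 liver libraries of piglets given SEFA-6179 at 48 mg/kg with 6 liver libraries of piglets given MCT at 3 ml/kg, which the labels describe as the vehicle control. SEFA-6179 is known here by its code name, and MCT is medium-chain triglyceride oil, by common usage. Both groups were born preterm, received parenteral nutrition and were sampled at day of life 15, so the comparison holds no piglet without parenteral nutrition. The labels give neither sex nor litter. Counts of the Y-linked gene EIF1AY were 0 in SEFA-6179 replicates 2, 3 and 5 and in MCT replicates 2 and 5. In every other library they were 350 to 495, so the Y-linked signal was not spread evenly over the groups. Each library was taken as 1 animal, since the series text speaks of animals; if libraries of a group shared an animal, p-values would measure technical spread.

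Reactive oxygen is cleared in steps. Superoxide dismutases turn superoxide into hydrogen peroxide, which catalase, glutathione peroxidases and peroxiredoxins break down. Glutathione, a tripeptide that liver makes in large amounts, supplies the reducing power of the peroxidases and is itself recycled by glutathione reductase. The transcription factor NRF2, encoded by NFE2L2 and held in check by KEAP1, drives many of these genes when cells meet electrophiles or oxidants. It is known from other mammals to act on GCLC, GCLM, GSR, TXNRD1, NQO1 and HMOX1.

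The 5 SEFA-6179 libraries held 16821201 to 19215097 counts each, the 6 MCT libraries 15974977 to 23416071. Hepatocyte markers were abundant in all libraries, as the tissue label says, with 10 of 10 listed markers found and a summed level of 90809 to 167769 CPM in SEFA-6179 livers and 61079 to 149832 CPM in MCT livers. CPM are counts scaled to library size by the trimmed mean of M values. On the first principal component of log2 CPM, MCT replicate 5 scored 83.1, and no other MCT library was outside -15.1 to -3.03. Macrophage markers, 10 of 12 found, summed to 63.7 CPM in SEFA-6179 replicate 4 with the other SEFA-6179 libraries at 1088 to 2366 CPM, and to 223 to 1375 CPM in MCT livers. Bile duct markers, 6 of 8 found, summed to 34.9 to 72.0 CPM in SEFA-6179 livers and 44.5 to 133 CPM in MCT livers; all 6 had a log2 fold change below 0 (median -1.1). By edgeR 0 of the 6 passed, beside 0.219% of all tested genes, and 4 were at an unadjusted p below 0.05, beside 10.8% of all tested genes. Stellate cell and fibroblast markers, 8 of 8 found, summed to 494 to 801 CPM in SEFA-6179 livers and 631 to 1008 CPM in MCT livers. Of 7 tested stellate and fibroblast markers 6 lay below 0 (median -0.14), and 0 passed by edgeR, with 4 at an unadjusted p below 0.05. Neutrophil and monocyte markers, 6 of 8 found, summed to 7.28 to 15.1 CPM in SEFA-6179 livers and 7.11 to 19.9 CPM in MCT livers. Of the 5 tested 3 lay above 0 (median 0.40), and 0 passed by edgeR, with 0 at an unadjusted p below 0.05. Endothelial markers, 8 of 9 found, summed to 428 to 853 CPM in SEFA-6179 livers and 362 to 728 CPM in MCT livers; 8 of 8 tested lay above 0 (median 0.38), and 0 passed by edgeR, with 3 at an unadjusted p below 0.05. Of the 10 hepatocyte markers 8 lay above 0 (median 0.26), and 0 passed by edgeR, with 1 at an unadjusted p below 0.05. Of the 10 tested macrophage markers 8 lay above 0 (median 0.34), and 0 passed by edgeR, with 0 at such a p. Of all tested genes 49.8% lay above 0. The part of these cell types in the members' levels was not tested. Results of members that turn on these libraries are also given without them.

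SOD1, the cytosolic copper-zinc superoxide dismutase, was the member with the greatest log2 fold change of SEFA-6179 over MCT, 0.96. It was at 828 ± 195 CPM in SEFA-6179 livers (SD, n = 5) and 426 ± 92.1 CPM in MCT livers (SD, n = 6). CAT, the peroxisomal enzyme that splits hydrogen peroxide, was at 2654 ± 909.8 CPM in SEFA-6179 livers and 1762 ± 231 CPM in MCT livers. The members known as NRF2 targets had log2 fold changes of -0.245 for NQO1, -0.16 for TXNRD1, 0.09 for GCLC, 0.16 for GCLM, 0.24 for GSR and 0.40 for HMOX1. In edgeR's quasi-likelihood test, adjusted by Benjamini-Hochberg over all 13671 genes, 0 of the 10 members passed an adjusted p of 0.05, where 0.219% of all tested genes did. At an unadjusted p below 0.05 there were 2 members, SOD1 and CAT, both higher with SEFA-6179, beside 10.8% of all tested genes in either direction and 5.24% in that one. DESeq2 called 1 member, SOD1, where it called 2.06% of genes, and limma with library quality weights also called SOD1 alone, where it called 0.454% of genes. The authors' deposited table gave 1.16% of genes an adjusted p below 0.05, and SOD1 was the single member among them, with an adjusted p of 0.00177. That share is over all 22029 genes of the table, with those below the count filter, and so is not on the same base as the others. The log2 fold change lay above 0 in 8 of the 10 members, beside 49.8% of all tested genes, and its median was 0.22 over the members and -0.0015 over all tested genes.

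**Figure D1:**
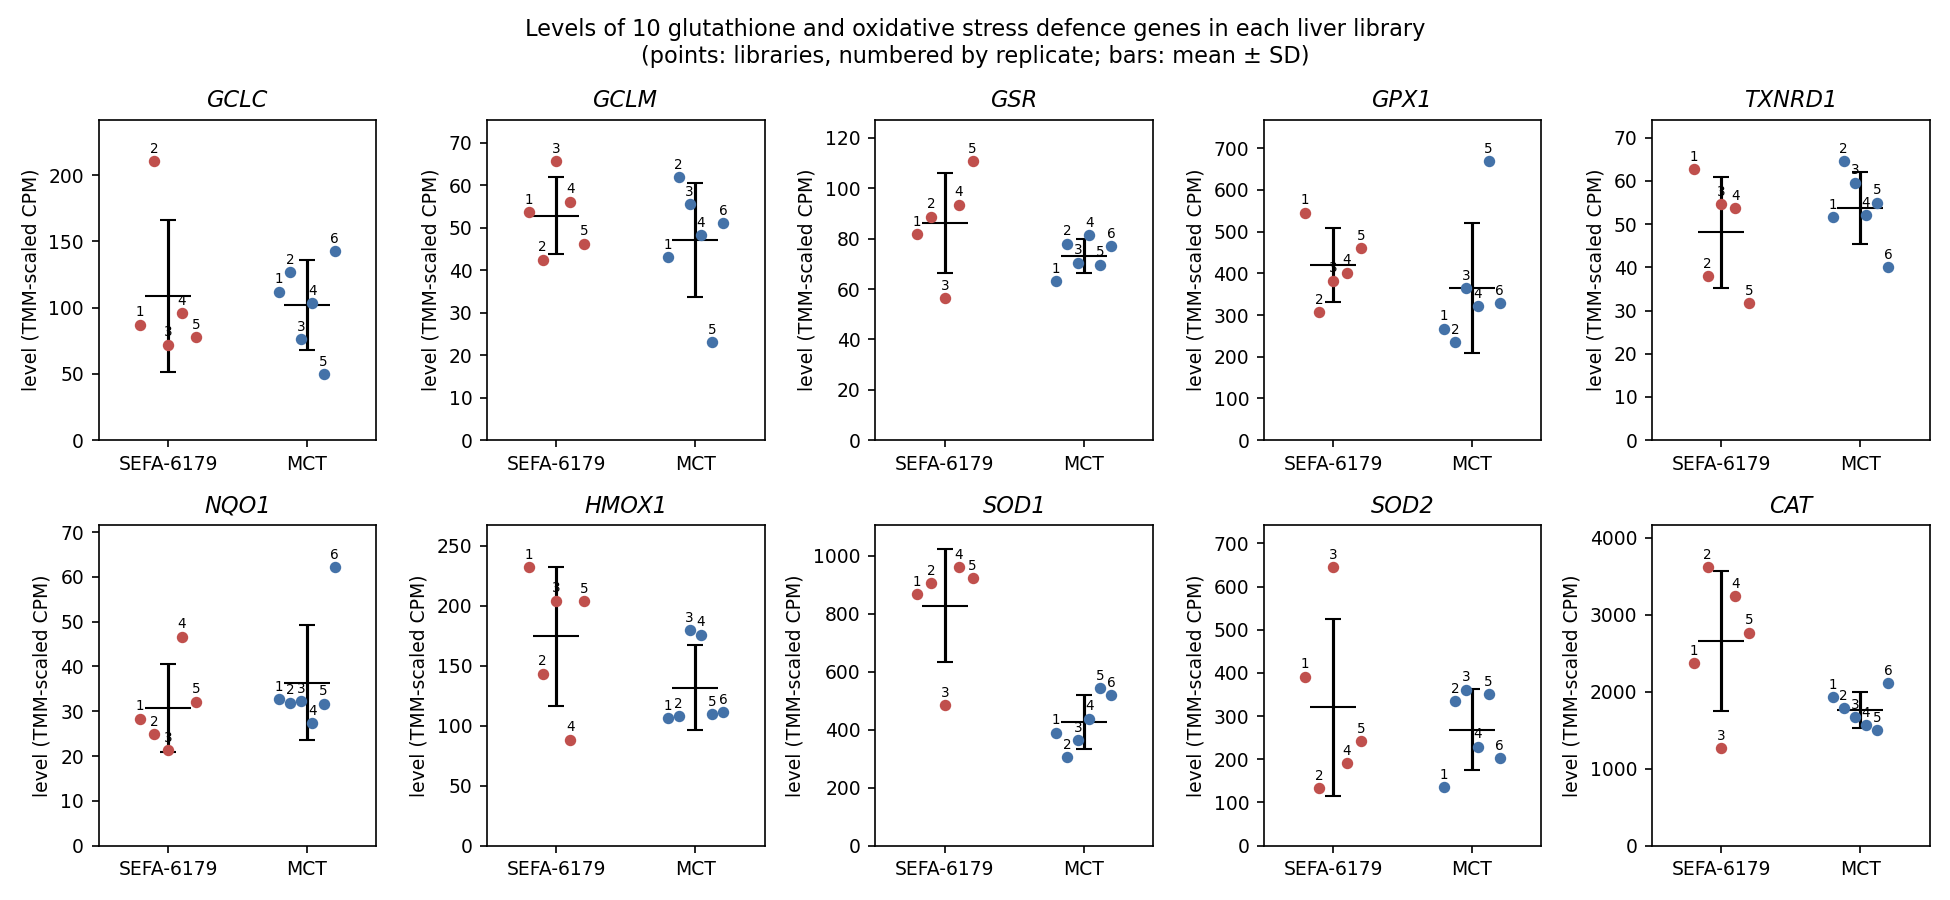
Levels of the 10 members in TMM-scaled CPM (vertical axis, from 0, a separate scale in each panel) in SEFA-6179 libraries (left, n = 5) and MCT libraries (right, n = 6). Points are libraries numbered by replicate and bars are mean ± SD. SOD1 was at 866 CPM or more in 4 of 5 SEFA-6179 libraries and at most 543 CPM in MCT livers.

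Levels can be compared between genes only per length, for which the deposited FPKM (fragments per length of gene and size of library) served. Over all 11 libraries CAT stood first, at 459.5 ± 160.0 FPKM (SD, n = 11), and was above SOD1 in 11 of 11 libraries. SOD1 and GPX1 followed at 198 ± 81.6 and 181 ± 59.9 FPKM, and their order was not fixed: SOD1 was above GPX1 in 4 of 5 SEFA-6179 libraries and in 2 of 6 MCT libraries. SOD2 came next at 62.3 ± 31.5 FPKM, below GPX1 in 11 of 11 libraries. HMOX1 at 32.4 ± 10.7, GSR at 27.3 ± 5.15 and GCLC at 25.4 ± 10.5 FPKM did not differ beyond their spread, each neighbour pair keeping its order in 7 of 11 libraries. NQO1 was at 17.5 ± 5.87 FPKM. GCLM at 9.62 ± 2.20 and TXNRD1 at 8.90 ± 1.82 FPKM stood last, in that order in 8 of 11 libraries. Raw counts behind these values ran from 410 for GCLM to 62725 for CAT in single libraries, so counting error was small beside the spread between animals.

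The superoxide dismutases convert the same substrate in different compartments, SOD1 in the cytosol and SOD2 in mitochondria. SOD1 (chromosome 13, 195326649 to 195337749, coordinates of the deposited table, for which no source used here names a genome build) had 866, 905, 484, 961 and 923 CPM in SEFA-6179 replicates 1 to 5, against a lowest, median and highest level of 304, 414 and 543 CPM in MCT livers. Thus 4 of 5 SEFA-6179 libraries exceeded every MCT library, and replicate 3 was inside the MCT range, below MCT replicates 5 and 6. The log2 fold change was 0.96 ± 0.21 (SE), a 1.94-fold difference with a 95% interval of 0.54 to 1.37 on the log2 scale. Its p was 0.000454 and its adjusted p 0.0905 by edgeR, which ranked SOD1 68th of all tested genes by p, while DESeq2 gave an adjusted p of 0.00136 and limma 0.0396.

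SOD1 lies within the span of SCAF4 on the opposite strand, which had a mean count of 476 against 11040 for SOD1. Without SEFA-6179 replicate 3 the SOD1 level was 914 ± 39.4 CPM with SEFA-6179 (SD, n = 4), the log2 fold change was 1.10 and edgeR's adjusted p was 0.0239. Without any other single library edgeR's adjusted p lay between 0.0729 and 0.221. Leaving out MCT replicate 5 and SEFA-6179 replicate 4 together gave a log2 fold change of 0.99 (edgeR adjusted p = 0.16, DESeq2 adjusted p = 0.00348). SEFA-6179 replicate 3 also had the lowest hepatocyte marker sum of its group, 90809 CPM against 111258 to 167769 CPM, and the highest macrophage marker sum, 2366 CPM against 63.7 to 1631 CPM. With MCT the lowest hepatocyte marker sum, 61079 CPM, was in replicate 3, which had 363 CPM of SOD1. The lowest SOD1 level of that group, 304 CPM, was in MCT replicate 2, with a hepatocyte marker sum of 121610 CPM. The part of these markers in the SOD1 level was not tested, and in bulk liver fewer cells of a type and less RNA per cell cannot be told apart. Erythroid markers, 7 of 10 found, summed to between 225 and 496 CPM in SEFA-6179 livers and between 106 and 426 CPM in MCT livers, and HBB, a hemoglobin chain, carried the sum: it was the 1 of 5 tested erythroid markers with a log2 fold change above 0, and the median of the 5 was -0.42. Their part was not tested either.

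SOD2 (chromosome 1, 7651280 to 7691723) was the member with the largest biological coefficient of variation, 0.44 by edgeR. It had 391, 133, 646, 191 and 242 CPM in SEFA-6179 replicates 1 to 5, against a lowest, median and highest level of 135, 282 and 361 CPM in MCT livers. The MCT range lay wholly inside the SEFA-6179 range, which spanned a factor of 4.87. SOD2 differed by 0.25 ± 0.38 on the log2 scale (SE, edgeR adjusted p = 0.859), with a 95% interval of -0.49 to 1.00. It was -0.17 without SEFA-6179 replicate 3, the library with the highest SOD2 and the lowest SOD1 level of its group. SOD2 shares 682 bases with WTAP on the opposite strand, whose mean count was 805 against 5556 for SOD2.

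Set against each other within a library, where no scaling between libraries enters, the log2 ratio of SOD1 to SOD2 counts was 1.55 ± 1.25 with SEFA-6179 (SD, n = 5) and 0.72 ± 0.69 with MCT (SD, n = 6). The difference of 0.83 did not pass a two-sided exact permutation test (p = 0.197; the smallest p this design allows is 0.00216). SOD1 counts were 6.82 times those of SOD2 in SEFA-6179 replicate 2 and 0.75 times in SEFA-6179 replicate 3. Without SEFA-6179 replicate 3 the difference was 1.32 (exact permutation p = 0.0238). Without any other single library the exact permutation p lay between 0.159 and 0.395.

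CAT (chromosome 2, 26487653 to 26581452) removes hydrogen peroxide in peroxisomes and was the most abundant member. It had 2372, 3623, 1265, 3245 and 2766 CPM in SEFA-6179 replicates 1 to 5, against a lowest, median and highest level of 1501, 1731 and 2111 CPM in MCT livers. Again 4 of 5 SEFA-6179 libraries exceeded every MCT library, while SEFA-6179 replicate 3 lay below them all. The log2 fold change was 0.59 ± 0.24 (SE), with a 95% interval of 0.12 to 1.06, a p of 0.0263 and an adjusted p of 0.37 by edgeR. With all libraries the adjusted p was 0.191 by DESeq2 and 0.207 in the authors' deposited table. Without SEFA-6179 replicate 3 the log2 fold change was 0.77, with an adjusted p of 0.101 by edgeR and 0.000614 by DESeq2. This DESeq2 test was chosen after the values were seen, and it was the 1 of 13 DESeq2 settings that called CAT. CAT reads made up 0.127% to 0.331% of counts in SEFA-6179 libraries and 0.141% to 0.226% in MCT libraries. CAT overlaps ABTB2, which runs the other way; mean counts were 39850 for CAT and 475 for ABTB2.

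**Figure D2:**
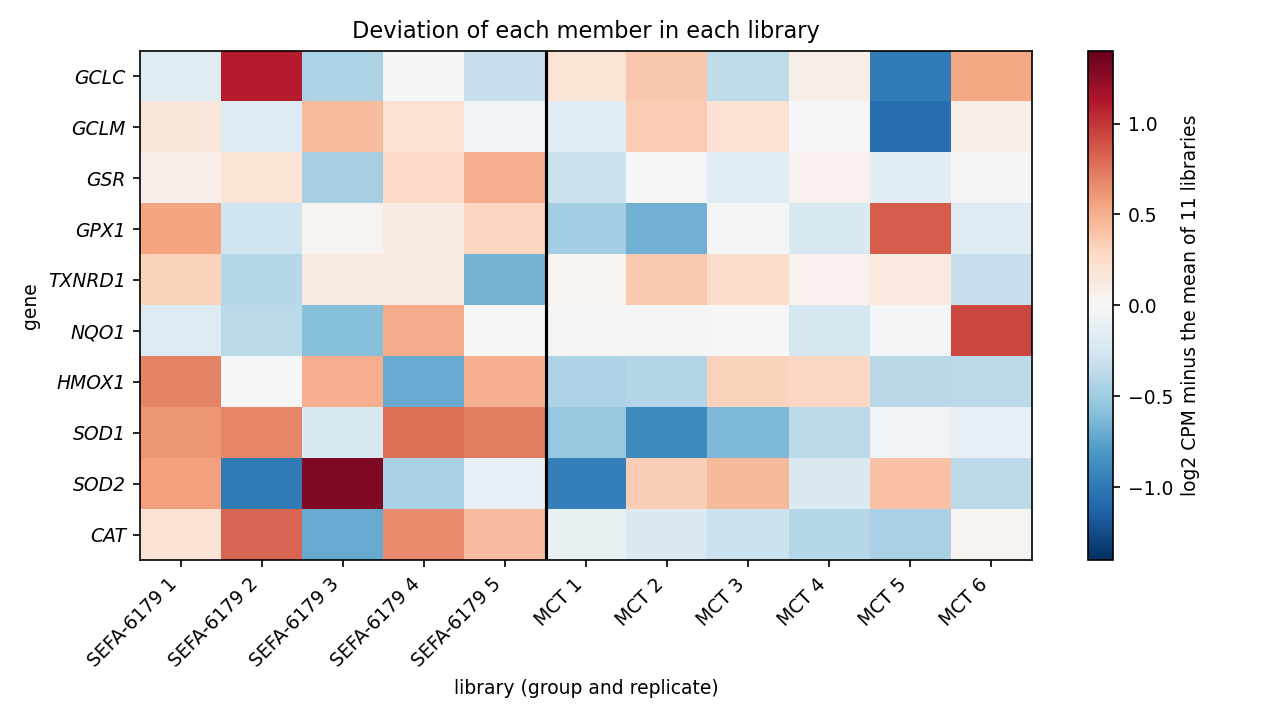
Log2 CPM of each member (rows) in each library (columns, SEFA-6179 left of the black line, MCT right of it) minus the mean over the 11 libraries; red is above and blue below that mean. SEFA-6179 replicate 3 was lowest of its group for SOD1, CAT, GSR, GCLC and NQO1 and highest for SOD2 and GCLM.

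Glutathione is built from glutamate and cysteine by glutamate-cysteine ligase, of which GCLC is the catalytic and GCLM the modifier subunit. GCLC (chromosome 7, 27209564 to 27253535) had 87.1, 210.3, 72.0, 96.0 and 78.0 CPM in SEFA-6179 replicates 1 to 5, against a lowest, median and highest level of 49.7, 108 and 142 CPM in MCT livers. SEFA-6179 replicate 2 was above every MCT library, and the other SEFA-6179 libraries lay within the MCT range and below its median. GCLC had a log2 fold change of 0.09 ± 0.31 (SE, edgeR adjusted p = 0.94), with a 95% interval of -0.52 to 0.71, and it was -0.29 without SEFA-6179 replicate 2.

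GCLM (chromosome 4, 123371193 to 123390135) had 53.8, 42.5, 65.6, 56.1 and 46.3 CPM in SEFA-6179 replicates 1 to 5, against a lowest, median and highest level of 23.0, 49.7 and 61.9 CPM in MCT livers. The groups overlapped, and the lowest level of all 11 libraries was in MCT replicate 5, which was also lowest for GCLC. For GCLM the log2 fold change was 0.16 ± 0.21 (SE, edgeR adjusted p = 0.83), with a 95% interval of -0.25 to 0.58. It was 0.0236 without MCT replicate 5 and 0.00579 without both MCT replicate 5 and SEFA-6179 replicate 4.

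The log2 ratio of GCLC to GCLM counts was 0.93 ± 0.81 with SEFA-6179 (SD, n = 5) and 1.09 ± 0.36 with MCT (SD, n = 6), a difference of -0.16 (exact permutation p = 0.68). It was highest in SEFA-6179 replicate 2, at 2.31, and lowest in SEFA-6179 replicate 3, at 0.133, with all MCT libraries between 0.46 and 1.48. Without SEFA-6179 replicate 2 the difference was -0.503 (exact permutation p = 0.0381), and without SEFA-6179 replicate 3 it was 0.04 (p = 0.938, exact).

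**Figure D3:**
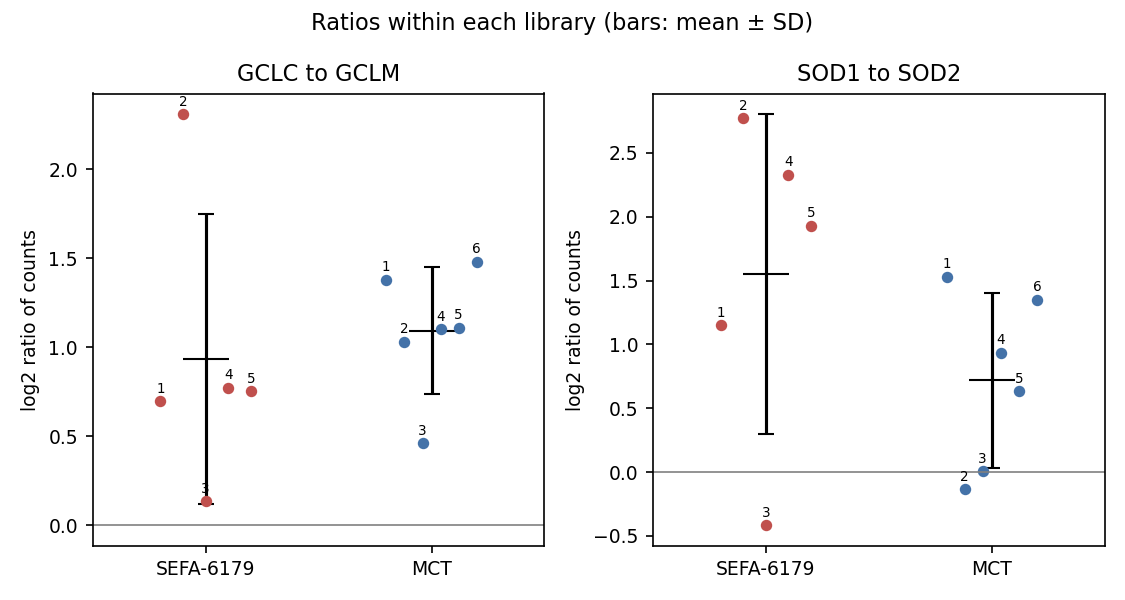
Log2 ratio of raw counts within each library (vertical axis) for GCLC to GCLM (left panel) and SOD1 to SOD2 (right panel), with SEFA-6179 libraries left (n = 5) and MCT libraries right (n = 6); points are libraries numbered by replicate, bars mean ± SD. SEFA-6179 replicates 2 and 3 mark the upper and lower end of both ratios.

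Of the other genes that supply glutathione, CTH, which makes cysteine from cystathionine, had the smallest p of its list. It was at 328 ± 122 CPM in SEFA-6179 livers and 195 ± 101 CPM in MCT livers, with a log2 fold change of 0.75 ± 0.34 (SE, edgeR adjusted p = 0.441). GSS, which adds glycine to finish glutathione, was at 22.3 ± 4.86 CPM in SEFA-6179 livers and 24.2 ± 3.71 CPM in MCT livers (log2 fold change -0.12 ± 0.17 SE). SLC7A11, the cystine carrier, was near the lower limit of detection, at 0.713 ± 0.552 CPM in SEFA-6179 livers and 0.999 ± 0.483 CPM in MCT livers. Of 8 tested genes of glutathione synthesis and supply 6 lay above 0, with a median log2 fold change of 0.15, and 0 passed by edgeR, with 1 at an unadjusted p below 0.05.

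GSR (chromosome 15, 54382567 to 54433989) encodes glutathione reductase, which returns oxidised glutathione to its reduced form with NADPH. It had 81.9, 88.7, 56.4, 93.6 and 110.7 CPM in SEFA-6179 replicates 1 to 5, against a lowest, median and highest level of 63.1, 73.7 and 81.3 CPM in MCT livers. As with CAT, 4 SEFA-6179 libraries were above all MCT libraries and replicate 3 was below them all. GSR had a log2 fold change of 0.24 ± 0.16 (SE, edgeR adjusted p = 0.63), with a 95% interval of -0.07 to 0.54. GSR was the steadiest member in MCT, with a coefficient of variation of 9.15%, against 23.0% with SEFA-6179. Of the 8 tested genes of glutathione and NADPH recycling 3 lay above 0, with a median of -0.12, and 0 passed by edgeR, with 0 at an unadjusted p below 0.05. GSR had the smallest p of that list.

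GPX1 (chromosome 13, 31914932 to 31917335), the cytosolic selenium-containing glutathione peroxidase, had 545, 308, 382, 402 and 460.0 CPM in SEFA-6179 replicates 1 to 5, against a lowest, median and highest level of 234, 325 and 668 CPM in MCT livers. The 668 CPM were those of MCT replicate 5, and the next MCT library had 364 CPM, so that 4 of 5 SEFA-6179 libraries lay above 5 of 6 MCT libraries. GPX1 had a log2 fold change of 0.20 ± 0.25 (SE, edgeR adjusted p = 0.822), with a 95% interval of -0.29 to 0.70. Without MCT replicate 5 it was 0.47 (edgeR adjusted p = 0.329), and it was 0.087 without SEFA-6179 replicate 1, 0.11 without MCT replicate 2 and 0.13 without MCT replicate 1. GPX4, which reduces lipid peroxides in membranes, was at 153 ± 22.2 CPM in SEFA-6179 livers and 123 ± 44.6 CPM in MCT livers (log2 fold change 0.32 ± 0.22 SE, edgeR adjusted p = 0.634), and its highest level, 204 CPM, was also in MCT replicate 5. GPX7, a peroxidase of the endoplasmic reticulum, had the smallest p of 5 tested peroxidases, at 4.72 ± 1.25 CPM in SEFA-6179 livers and 7.47 ± 2.51 CPM in MCT livers (log2 fold change -0.66 ± 0.27 SE, edgeR adjusted p = 0.385). Of the 5, 4 lay above 0 with a median of 0.20, and 0 passed by edgeR, with 1 at an unadjusted p below 0.05.

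TXNRD1 (chromosome 5, 80168523 to 80288075), the cytosolic thioredoxin reductase, had 62.7, 37.95, 54.6, 53.7 and 31.7 CPM in SEFA-6179 replicates 1 to 5, against a lowest, median and highest level of 40.1, 53.5 and 64.5 CPM in MCT livers. SEFA-6179 replicates 2 and 5 were below all MCT libraries and the other 3 were inside the MCT range. The log2 fold change was -0.16 ± 0.18 (SE, edgeR adjusted p = 0.803), with a 95% interval of -0.52 to 0.20.

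Among the 14 tested genes of the thioredoxin and peroxiredoxin system, 8 lay above 0 with a median of 0.055, and 0 passed by edgeR, with 3 at an unadjusted p below 0.05. MSRB1, a selenoprotein that repairs oxidised methionine, had the smallest p of that list. It had 185, 194, 206, 236 and 224 CPM in SEFA-6179 replicates 1 to 5, against a lowest, median and highest level of 126, 144 and 163 CPM in MCT livers, so the lowest SEFA-6179 library exceeded the highest MCT library. Such a separation, in either direction, was seen in 1.49% of all tested genes and in 0 of the 10 members. The log2 fold change of MSRB1 was 0.54 ± 0.13 (SE), with an adjusted p of 0.122 by edgeR and 0.000776 by DESeq2, and the authors' deposited table gave it an adjusted p of 0.00291. SRXN1, which reactivates oxidised peroxiredoxins and is another NRF2 target, was at 16.1 ± 8.17 CPM in SEFA-6179 livers and 23.1 ± 7.67 CPM in MCT livers (log2 fold change -0.52 ± 0.39 SE, edgeR adjusted p = 0.682). PRDX1, a cytosolic peroxiredoxin, was at 144 ± 28.0 CPM in SEFA-6179 livers and 152 ± 39.0 CPM in MCT livers (log2 fold change -0.07 ± 0.19 SE), and its log2 fold change was 0.09 without MCT replicate 5.

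NQO1 (chromosome 6, 17292769 to 17302590), a quinone reductase widely used as a readout of NRF2, had 28.3, 24.9, 21.3, 46.6 and 32.1 CPM in SEFA-6179 replicates 1 to 5, against a lowest, median and highest level of 27.3, 32.0 and 62.2 CPM in MCT livers. The highest level was in MCT replicate 6, and the other 5 MCT libraries had at most 32.8 CPM. Its log2 fold change was -0.245 ± 0.24 (SE, edgeR adjusted p = 0.762), with a 95% interval of -0.71 to 0.22. It was -0.02 without MCT replicate 6, whereas leaving out SEFA-6179 replicate 4 gave -0.44.

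HMOX1, which opens the heme ring and releases iron, carbon monoxide and biliverdin, lies on an unplaced scaffold in the deposited table. It had 232, 143, 204, 88.3 and 204 CPM in SEFA-6179 replicates 1 to 5, against a lowest, median and highest level of 106, 111 and 180 CPM in MCT livers. SEFA-6179 replicates 1, 3 and 5 were above all MCT libraries and replicate 4 was below them all. HMOX1 had a log2 fold change of 0.40 ± 0.24 (SE, edgeR adjusted p = 0.579), with a 95% interval of -0.07 to 0.88, and it was 0.58 without SEFA-6179 replicate 4 (edgeR adjusted p = 0.38). Macrophages are known to express HMOX1 when they take up heme. The macrophage marker sum was 1088, 1116, 2366, 63.7 and 1631 CPM in SEFA-6179 replicates 1 to 5. Replicate 1, with the highest HMOX1 level of its group, thus had a lower sum than replicates 2, 3 and 5. With MCT the sum was 1337 and 1375 CPM in replicates 3 and 4, which had the highest HMOX1 levels, 180 and 176 CPM, and 223 to 726 CPM in the other 4, which had 106 to 112 CPM of HMOX1. The part of macrophages in the HMOX1 level was not tested. HMOX2, the heme oxygenase that is present without induction, was at 104 ± 7.74 CPM in SEFA-6179 livers and 78.3 ± 8.01 CPM in MCT livers, with 5 of 5 SEFA-6179 libraries above the highest MCT library. Its log2 fold change was 0.41 ± 0.12 (SE), with an adjusted p of 0.2 by edgeR and 0.0253 by DESeq2. In the authors' deposited table the adjusted p of HMOX2 was 0.0535. Of 7 tested genes of heme breakdown and metal binding 6 lay above 0 with a median of 0.31, and 0 passed by edgeR, with 1 at an unadjusted p below 0.05.

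**Figure D4:**
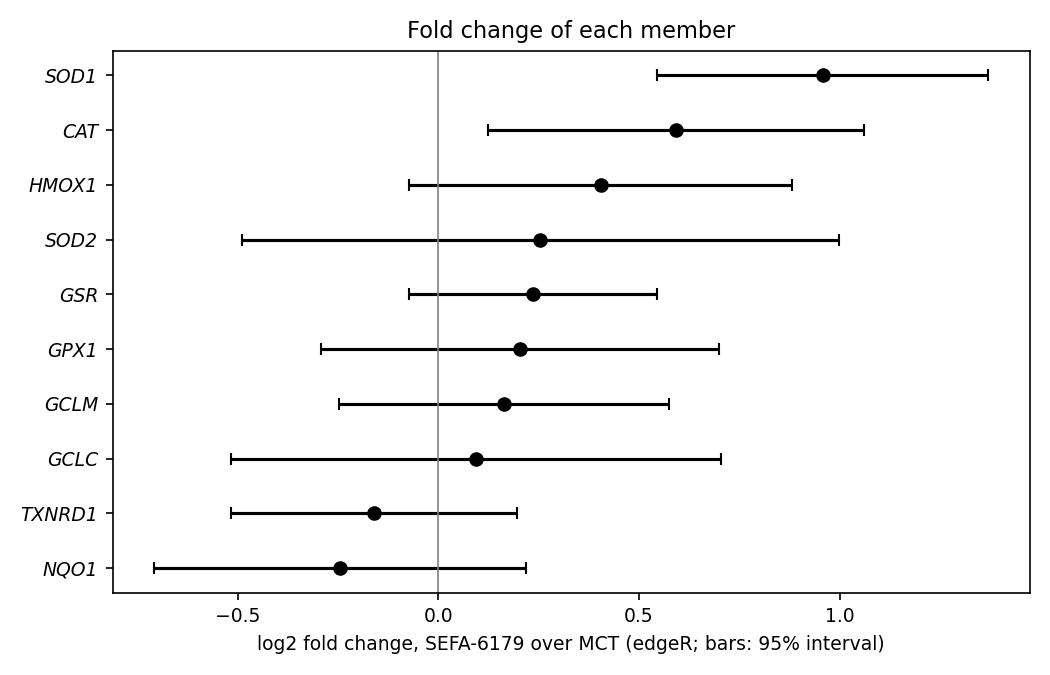
Log2 fold change of SEFA-6179 over MCT for each member (horizontal axis) with its 95% interval, from edgeR over 5 SEFA-6179 and 6 MCT libraries. The intervals of SOD1 (0.54 to 1.37) and CAT (0.12 to 1.06) do not hold 0 before adjustment over all genes, and those of the other 8 members do.

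The NRF2 system can also be read over a longer list of known targets. Of 22 tested NRF2 target genes 7 were above 0 on the log2 scale, with a median of -0.078, and 0 passed by edgeR, with 1 at an unadjusted p below 0.05. That gene was MGST1, a microsomal glutathione transferase, at 611 ± 141 CPM in SEFA-6179 livers and 422 ± 60.9 CPM in MCT livers (log2 fold change 0.54 ± 0.18 SE, edgeR adjusted p = 0.283). NFE2L2 itself was at 82.4 ± 19.6 CPM in SEFA-6179 livers and 91.4 ± 9.03 CPM in MCT livers (log2 fold change -0.15 ± 0.16 SE, edgeR adjusted p = 0.784), and its inhibitor KEAP1 at 69.6 ± 11.6 CPM in SEFA-6179 livers and 64.5 ± 12.2 CPM in MCT livers (log2 fold change 0.11 ± 0.16 SE, edgeR adjusted p = 0.852). Of 9 tested NRF2 regulators 4 lay above 0 with a median of -0.0022, and 0 passed by edgeR, with 0 at an unadjusted p below 0.05. The smallest p among them was that of CUL3, the ubiquitin ligase scaffold that acts with KEAP1, at 39.8 ± 4.19 CPM in SEFA-6179 livers and 35.2 ± 1.16 CPM in MCT livers (edgeR adjusted p = 0.595).

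Glutathione transferases, which couple glutathione to reactive compounds, had the highest median of the lists, 0.34, with 6 of 9 tested genes above 0. By edgeR 0 passed, and 3 were at an unadjusted p below 0.05. Of all tested genes 10.8% were at such a p and 49.8% lay above 0, and these shares stand beside the counts of every list. GSTK1, found in mitochondria and peroxisomes, had the smallest p of that list, at 317 ± 94.7 CPM in SEFA-6179 livers and 198 ± 42.9 CPM in MCT livers (log2 fold change 0.68 ± 0.22 SE, edgeR adjusted p = 0.255). It was above all MCT libraries in 4 of 5 SEFA-6179 libraries, and replicate 3 was again the lowest of the group, at 182 CPM. Of 5 tested superoxide dismutase and catalase genes 4 lay above 0 with a median of 0.25, and 0 passed by edgeR, with 2, SOD1 and CAT, at an unadjusted p below 0.05. Of 8 genes of selenoprotein supply 6 lay above 0 with a median of 0.11, and 0 passed by edgeR, with 2 at an unadjusted p below 0.05. SCLY, which frees selenium from selenocysteine, had the smallest p of them, at 52.4 ± 5.50 CPM in SEFA-6179 livers and 40.1 ± 6.73 CPM in MCT livers (edgeR adjusted p = 0.313).

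Over the 10 lists, 83 of 97 listed genes were found and 79 were tested. Of these 47 lay above 0, with a median of 0.095. By edgeR 0 passed, with 13 at an unadjusted p below 0.05, of which 11 lay above 0 and 2 below, beside 10.8% of all tested genes at such a p in either direction and 5.24% at such a p and above 0. DESeq2 called 3 of them, SOD1, MSRB1 and HMOX2, beside 2.06% of all genes it tested. Over 13 DESeq2 settings, with all libraries or with some left out, SOD1 and MSRB1 were called in 13 and HMOX2 in 7.

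**Figure D5:**
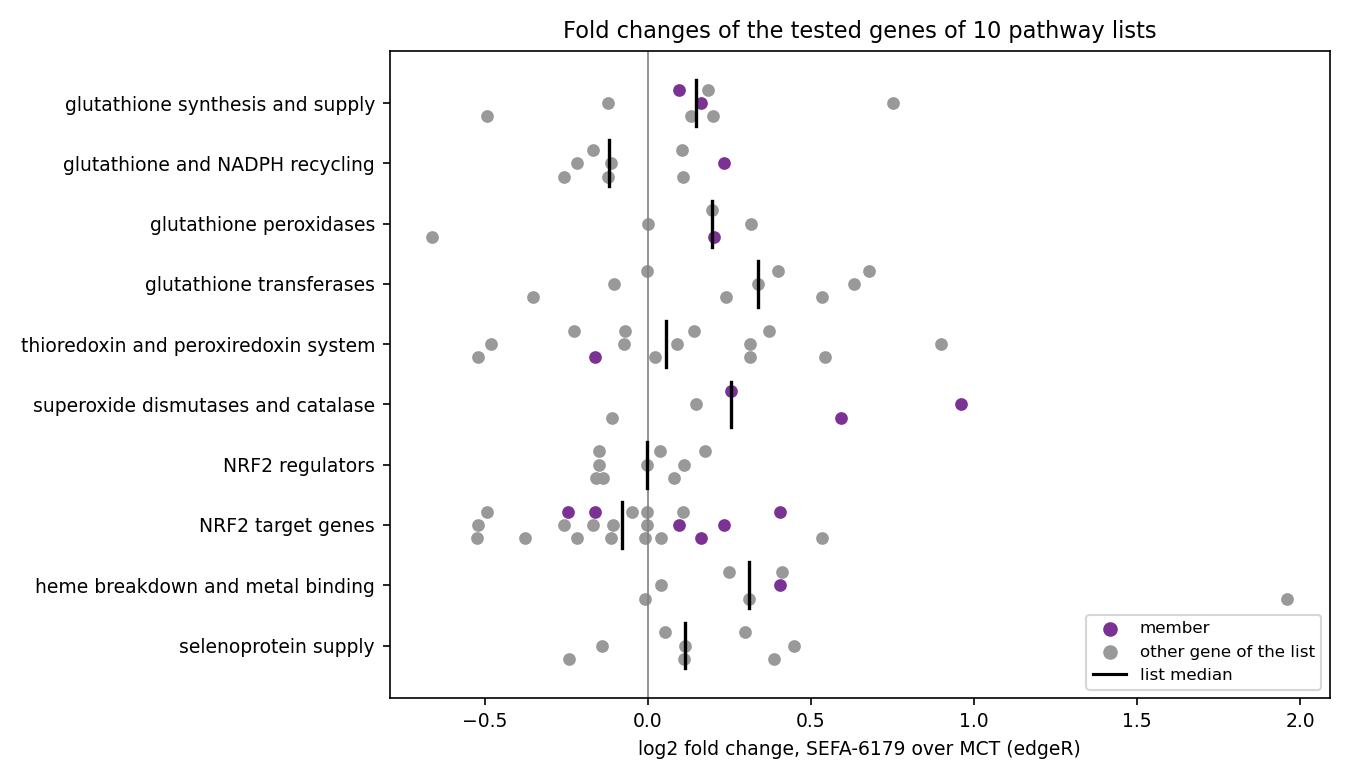
Log2 fold change of SEFA-6179 over MCT (horizontal axis, edgeR) of the tested genes of 10 lists (rows; a gene may stand in several). Purple points are members, grey points other genes, offset vertically for legibility, and black bars are list medians, which run from -0.12 for recycling to 0.34 for glutathione transferases.

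Biological coefficients of variation from edgeR ran from 0.213 for GSR to 0.44 for SOD2, at percentiles 21.8 and 81.4 of all tested genes, with SOD1 at 0.267 and CAT at 0.291. The gene whose log2 CPM over the 11 libraries was most like that of CAT was HAAO, an enzyme of tryptophan breakdown (Pearson r = 0.957, Spearman rho = 0.973, n = 11). For SOD1 it was SH3GLB2 (r = 0.949, rho = 0.927). For SOD2 it was BCL3, a nuclear partner of NF-kappaB (r = 0.945, rho = 0.90), for GCLM the HSP70-type chaperone HSPA13 (r = 0.941, rho = 0.873) and for GPX1 the mitochondrial transcription factor TFAM (r = 0.921, rho = 0.918). The closest genes were TMEM9 for GCLC (r = 0.936), XYLB for GSR (r = 0.908), ENO4 for NQO1 (r = 0.915), ZBED4 for TXNRD1 (r = 0.937) and UST for HMOX1 (r = 0.921). These genes were picked as the best match among all tested genes with a symbol, so high values were to be found, and the points of SOD1 and CAT also share the difference between the groups.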

How the data were processed

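Liver RNA-seq of 5 SEFA-6179 and 6 MCT libraries was analysed from a single deposited table. Per the file headers it holds raw read counts per gene, and FPKM values per library made by the authors. It also holds a normalized signal, for which the authors scaled each library's counts by a factor, and the authors' deposited log2 fold change, p-value and adjusted p-value. Per the submitters' processing notes the tools included DESeq2 1.20.0, featureCounts 1.5.0-p3, HISAT2 2.0.5 and StringTie 1.3.3b, with no role stated. The sources used here name no genome build, annotation or strand setting. Where genes overlap, their reads therefore may be mixed, whichever strand each is on. No library was a copy of another: chi-square over degrees of freedom was at least 41.9 for every pair of libraries.

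The deposited counts went into edgeR 4.0.16 (R 4.3.3): filterByExpr with a minimum count of 10, TMM scaling, and the robust quasi-likelihood test, two-sided, adjusted over all 13671 genes, at a threshold of 0.05. Log2 CPM used a prior count of 2, and ratios of counts a pseudocount of 0.5. Each standard error is the log2 fold change over the root of its F value, and 95% intervals come from these and the normal distribution, without adjustment for multiple tests. Ratios were compared by exact permutation in Python 3.11.15. The test was first run on simulated counts. Alternatives were DESeq2 1.42.0, limma 3.58.1 with voom and library quality weights, DESeq2 size factors, 2 other count filters (none, and a mean count of at least 50), non-robust estimation, a replicate block, each library left out, MCT replicate 5 and SEFA-6179 replicate 4 left out together, the level of the Y-linked EIF1AY as a covariate, and a gene length correction. DESeq2 with libraries left out was added after the data were seen.

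The members, the lists and the alternatives were chosen with earlier results of these data known. Named were all members, the gene with the smallest p of each list (had any list gene passed edgeR, all that passed), 8 further genes fixed by name, of which TXN is not analysed here, and the best match of each member. Of all genes 14022 had a symbol in the table, and a reference list named 779 more.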

Additional observations from a re-analysis of the deposited data

Results flagged for a closer look

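In all, 54 groups of libraries were examined, 2 for each of the 10 members, the 15 other named genes and the 2 ratios. A nominal rate of 1 in 20 would give 2.7 groups with 1 library widely separated from the others. The groups share the same libraries and are not independent, so an excess over chance was not tested. Such a library was found in 7 groups, with a gap to the nearest library of 0.7 to 0.844 of the group's range. Among the members these were GCLC in SEFA-6179 replicate 2, at 210.0 CPM with the next library at 96.0 CPM, and SOD1 in SEFA-6179 replicate 3, at 484 CPM with the next at 866 CPM. GPX1 in MCT replicate 5 was at 668 CPM with the next at 364 CPM, and NQO1 in MCT replicate 6 at 62.2 CPM with the next at 32.8 CPM. Among the other genes, GSS in SEFA-6179 replicate 5 was at 13.8 CPM, SLC7A11 in SEFA-6179 replicate 4 at 1.67 CPM, and PRDX1 in MCT replicate 5 at 230.0 CPM. The flagged libraries differ from gene to gene: 4 of the 7 are SEFA-6179 libraries, each a different one, and MCT replicate 5 appears for GPX1 and PRDX1.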

How the results depend on the processing

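The number of members called was 0 by edgeR and 1, SOD1, by DESeq2 and by limma. Leaving out 1 library in edgeR gave 0 to 1, the 1 being SOD1 without SEFA-6179 replicate 3. In DESeq2, added after the data were seen, it gave 1 to 2, SOD1 each time and CAT without SEFA-6179 replicate 3, and 1 with both MCT replicate 5 and SEFA-6179 replicate 4 dropped. Over all genes edgeR called 30, DESeq2 276, limma 62, the EIF1AY covariate left 6, dropping both MCT replicate 5 and SEFA-6179 replicate 4 left 1, and leaving out 1 library gave 0 to 53. The log2 fold change of SOD1 stayed between 0.88 and 1.10 over 21 alternatives, with an adjusted p from 0.00136 to 0.221. With the EIF1AY level as a covariate it was 0.99 (edgeR adjusted p = 0.132). With 1 library left out, the GCLC to GCLM difference ran from -0.503 to 0.04 and the SOD1 to SOD2 difference from 0.53 to 1.32. The replicate numbers gave no sign of pairing: deviations of same-numbered libraries correlated at -0.149 to 0.202, above 0.1 in 1 of 5 pairs. A replicate block, which leaves out MCT replicate 6, gave 0 members called, 8 calls over all genes and a SOD1 adjusted p of 0.137. Over the 5 pairs the ratio differences were -0.0829 (p = 0.812) and 0.96 (p = 0.25, exact sign permutation). With 5 pairs that two-sided permutation cannot give a p below 0.05, whatever the values, so it decides nothing.

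Among the named genes the sign turned in 4, none of them called in any setting. GCLC was at -0.0529 by limma, between -0.288 and 0.214 with 1 library left out (-0.288 without SEFA-6179 replicate 2, DESeq2 -0.287; -0.0456 when MCT replicate 5 was dropped, DESeq2 -0.0477) and at -0.000533 with it and SEFA-6179 replicate 4 dropped (DESeq2 -0.00382). SOD2 ran from -0.168 without SEFA-6179 replicate 3 (DESeq2 -0.169) to 0.454, and GSS from -0.184 to 0.00527 without SEFA-6179 replicate 5 (DESeq2 0.0074). PRDX1 was at 0.0149 by limma, between -0.147 and 0.0866 with 1 library left out (0.0289 without SEFA-6179 replicate 2, DESeq2 0.0302; 0.0866 when MCT replicate 5 was dropped, DESeq2 0.0862) and at 0.034 with it and SEFA-6179 replicate 4 dropped (DESeq2 0.0303). The cause was not tested. With 1 library left out, GCLM ran from 0.0236 to 0.259, GSR from 0.126 to 0.355, TXNRD1 from -0.28 to -0.0455, HMOX1 from 0.272 to 0.578 and CAT from 0.454 to 0.768 in edgeR, none of them called.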

Other observations

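Genes of the lists outside the naming rule, chosen after their values were seen, add 2 patterns. PRDX6, a peroxiredoxin that also handles oxidised phospholipids, had 127, 52.1, 51.2, 127 and 111 CPM in SEFA-6179 replicates 1 to 5, against 34.4 to 60.7 CPM with MCT. Replicates 1, 4 and 5 were above all MCT libraries, and replicates 2 and 3 were inside their range (log2 fold change 0.90 ± 0.26 SE, edgeR adjusted p = 0.197, DESeq2 adjusted p = 0.0524). MT1A, a metallothionein, reached 323 CPM in SEFA-6179 replicate 3, with at most 33.8 CPM in the other SEFA-6179 libraries, against 0.794 to 45.8 CPM with MCT (log2 fold change 1.96 ± 1.18 SE, edgeR adjusted p = 0.592). SEFA-6179 replicate 3 is thus also the library with the highest SOD2 and the lowest CAT level of all 11.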
